A study of Mus musculus with 15 samples.

Results

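The subject is a group of 7 genes of cholesterol synthesis (Hmgcs1, Idi1, Fdps, Fdft1, Sqle, Lss and Insig1), read in mouse small intestinal organoids that overexpressed the transcription factor SOX9. The 7 were taken by symbol from the per-library count tables, which list 78298 genes, and each symbol matched 1 row. Poly-A RNA was sequenced in 15 libraries, 3 from each of 5 conditions, and 17560 genes, among them all 7, passed the filter on low counts. The organoids came from the small intestine of female mice of a C57BL/6J background, aged 8 to 16 weeks, carried lentiviral transgenes under the L30 promoter, and were harvested 5 days after seeding. Halo-NLS, the control, expressed a V5-tagged HaloTag with a nuclear localization signal. SOX9-mEGFP_budding and SOX9-Halo_budding expressed V5-tagged SOX9 fused to mEGFP or to HaloTag and had the usual budded shape. All 3 of these transgenes were coupled to puromycin resistance. SOX9-mEGFP_spheroid and SOX9-Halo_spheroid were the same stable lines after longer culture, when they grew as spheres. The first then also carried H2B-mScarletI with neomycin resistance and the second H2B-mEGFP with zeocin resistance. Each tag was represented by 1 line, so a tag and its line cannot be told apart, nor can the spheroid shape, the time in culture and the additional transgene. The 3 libraries of a condition are described as biological triplicates of its line, and p-values measure the spread between such libraries only. That spread was estimated per gene in 1 fit over all 15 libraries. Comparisons between SOX9 conditions therefore also carry the spread of the Halo-NLS libraries. In bulk RNA, fewer cells of a type and less RNA per cell cannot be told apart.

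Cells make cholesterol from acetyl-CoA through mevalonate and the isoprenoid units, which are joined into squalene and closed into lanosterol, the first sterol. When sterols run low in the membrane of the endoplasmic reticulum, the SREBP2 transcription factor is released and raises the genes of the whole route, and when sterols are plentiful INSIG proteins hold SREBP2's escort back. The intestinal epithelium both makes sterol and takes it up from the lumen, and enterocytes export it in lipoproteins. Of the 7 genes, 6 encode enzymes of synthesis and Insig1 encodes the retention protein. None encodes a receptor or transporter of cholesterol uptake, so the uptake genes described further on come from a separate list.

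SREBP2 is known to act at promoters together with the factors NF-Y and Sp1, so promoters were searched for the letters these factors prefer. The windows run from 250 bases before to 50 bases after each start in RefSeq (GRCm38.p6), and those of 4 of the 7 genes (Hmgcs1, Idi1, Lss and Insig1) were searched. The promoters of Sqle, Fdft1 and Fdps were not analysed here. Searched on both strands, an NF-Y box (CCAAT, read ATTGG on the other strand) was found in 4 of 4 genes and in 41.1% of all 27025 genes with such a window. An Sp1 box (GGGCGG, or CCGCCC) was found in 4 of 4 and in 38.2% of all. A sterol regulatory element written TCACNCCAC was found in 1 of 4, Hmgcs1, 137 bases before the start, and in 1.44% of all. A SOX box (ACAAT) was found in 0 of 4 and in 34.4% of all, and an E-box (CACGTG), which overlaps none of the others in letters, in 1 of 4, Insig1, and in 8.09% of all. A match is a description of letters, not a site of binding. The stretches below hold 5 of the 8 matches of Hmgcs1 (the others lie nearer the ends of its window) and all 3, 3 and 5 matches of Idi1, Lss and Insig1. They are printed in lower case with each match in capitals, 5′ to 3′ on the + strand. Hmgcs1 is shown because it alone has all 3 elements, Idi1 and Lss for their NF-Y and Sp1 boxes, and Insig1 for the E-box near the end of its stretch.
Hmgcs1, chr13:119690151-119690350: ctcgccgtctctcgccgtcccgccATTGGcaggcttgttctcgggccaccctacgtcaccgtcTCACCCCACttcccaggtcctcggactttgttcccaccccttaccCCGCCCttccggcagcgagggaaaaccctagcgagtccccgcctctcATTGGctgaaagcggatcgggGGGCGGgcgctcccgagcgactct
Idi1, chr13:8885506-8885605: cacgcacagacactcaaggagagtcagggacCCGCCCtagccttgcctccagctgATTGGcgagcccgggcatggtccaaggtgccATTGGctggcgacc
Lss, chr10:76531425-76531604: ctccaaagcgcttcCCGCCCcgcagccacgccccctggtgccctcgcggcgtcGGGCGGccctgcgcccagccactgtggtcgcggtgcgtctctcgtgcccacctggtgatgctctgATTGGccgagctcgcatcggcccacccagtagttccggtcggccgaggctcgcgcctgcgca
Insig1, chr5:28071172-28071321: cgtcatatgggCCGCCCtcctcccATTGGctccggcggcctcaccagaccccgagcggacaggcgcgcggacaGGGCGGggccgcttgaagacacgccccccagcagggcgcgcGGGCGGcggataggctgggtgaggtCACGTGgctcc

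The libraries held 28062722 to 40559766 counted reads each, with a median of 33491297. Sox9 itself, where reads of the transgene and of the mouse gene cannot be told apart, stood at 515, 769 and 305 normalized counts in Halo-NLS and between 1336 and 23654 in the 12 SOX9 libraries, all of which exceeded the controls. The lowest SOX9 library was SOX9-Halo_budding 1. Values below are counts scaled by TMM, edgeR's correction for library size and composition, and adjusted p-values come from edgeR's quasi-likelihood F-test across all 17560 genes. A gene is termed called where its adjusted p was 0.01 or less, its log2 fold change was 1 or more in either direction, and its normalized counts averaged 10 or more. A pair of Halo-NLS libraries stood apart in base composition. In Halo-NLS 2 and 3 the 2211 genes whose exons hold at most 43.7% G and C had median log2 deviations from their own mean over all libraries of −1.12 and −1.06, against 0.12 in Halo-NLS 1. The next lowest library was SOX9-Halo_budding 2, at −0.41. Each fold change is therefore given, where it matters, also after a trend with GC content was removed from every library.

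The 7 genes were abundant, and their condition means spread about as far as those of other genes. In RPKM, reads scaled by exon length and by library size, Fdps had the highest mean level over the 15 libraries (146 RPKM), followed by Insig1 (120), Hmgcs1 (73.3), Fdft1 (52.4), Sqle (49.6), Lss (28.0) and Idi1 (19.3). The place of Lss depends on its long annotated exons, 11359 bases over all isoforms. The highest condition mean exceeded the lowest 2.48-fold for Hmgcs1, 2.44-fold for Idi1, 2.37-fold for Sqle, 2.15-fold for Insig1, 1.79-fold for Fdps, 1.51-fold for Lss and 1.43-fold for Fdft1. The median of that ratio was 2.17, and 56.2% of genes had at least 2, over the 11054 genes with a mean of at least 100 normalized counts. The plot of normalized counts shows every library.

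**Figure D1:**
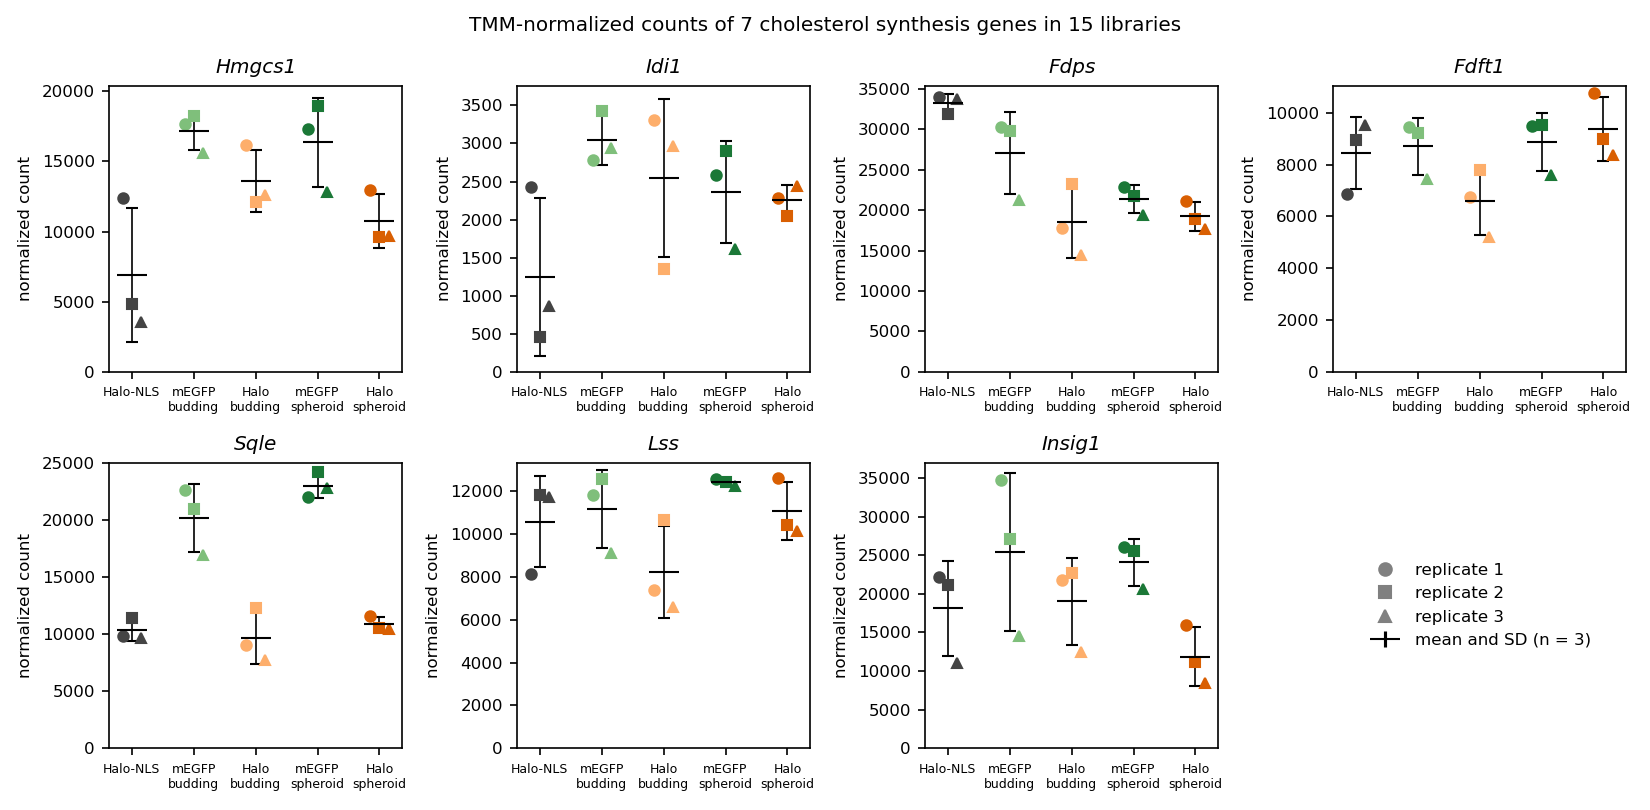
Normalized counts (vertical axis, from 0) of each of the 7 genes in the 15 libraries, by condition; marker shapes are replicates 1 to 3 and black bars the mean ± SD (n = 3). Sqle sits at 16907 or more in all 6 SOX9-mEGFP libraries and at 12239 or less in the other 9, while Hmgcs1 and Idi1 are lowest in Halo-NLS 2 and 3.

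Hmgcs1 encodes cytosolic HMG-CoA synthase, an early step on the way to mevalonate (ENSMUSG00000093930, chr13:120151915-120170470, + strand, GRCm39). It stood at 12399, 4825 and 3526 normalized counts in Halo-NLS replicates 1 to 3. It stood at 17644, 18241 and 15606 in SOX9-mEGFP_budding and at 16173, 12113 and 12575 in SOX9-Halo_budding. The spheroids read 17306, 18939 and 12845 in the SOX9-mEGFP line and 12957, 9582 and 9653 in the SOX9-Halo line. Halo-NLS 2 and 3 lay below every other library, whereas Halo-NLS 1 lay within the range of both SOX9-Halo conditions and below both SOX9-mEGFP conditions. Against Halo-NLS, Hmgcs1 was higher in SOX9-mEGFP_spheroid by a log2 fold change of 1.24 ± 0.35 (SE; 2.37-fold, adjusted p = 0.0096), and this difference was called. It was 1.31 ± 0.35 in SOX9-mEGFP_budding (adjusted p = 0.028), 0.98 ± 0.35 in SOX9-Halo_budding (adjusted p = 0.063) and 0.63 ± 0.35 in SOX9-Halo_spheroid (adjusted p = 0.15), none of them called. Those 4 comparisons share the Halo-NLS libraries. With the GC trend removed, the values were 0.49, 0.66, 0.35 and 0.03 and none was called. Without Halo-NLS 1 they rose to 1.98, 2.04, 1.71 and 1.37, all called, and with Halo-NLS 2 and 3 left out they were 0.34, 0.46, 0.13 and −0.23. The count of Hmgcs1 thus depended on which control libraries were read, and the part of base composition in that was not tested. An lncRNA and a coding gene share 12.0% of its exon bases and hold 50 and 64 counts in all libraries together. Reads that overlapped several genes were assigned to none of them.

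Idi1 encodes isopentenyl-diphosphate isomerase, which interconverts the basic isoprenoid units (chr13:8935537-8942487, + strand). Its counts were 2426, 458 and 866 in Halo-NLS, 2779, 3424 and 2943 in SOX9-mEGFP_budding and 3308, 1357 and 2972 in SOX9-Halo_budding. In the spheroids they were 2580, 2904 and 1617 for the SOX9-mEGFP line and 2284, 2050 and 2445 for the SOX9-Halo line. The 3 lowest values were Halo-NLS 2, Halo-NLS 3 and SOX9-Halo_budding 2, which are also the 3 libraries in which genes of low GC content were lowest. Idi1 was above Halo-NLS by 1.29 ± 0.47 in SOX9-mEGFP_budding, 1.03 ± 0.47 in SOX9-Halo_budding, 0.92 ± 0.46 in SOX9-mEGFP_spheroid and 0.85 ± 0.46 in SOX9-Halo_spheroid (log2, SE; adjusted p = 0.072, 0.12, 0.11 and 0.14), and none was called. With the GC trend removed they were 0.70, 0.35, 0.24 and 0.33, and with Halo-NLS 2 and 3 left out 0.32, 0.05, −0.09 and −0.12, none called. Without Halo-NLS 1 they were 2.21, 1.95, 1.85 and 1.78, all called. Hmgcs1 and Idi1 have the lowest GC content of the 7 genes, 41.4% each, and the share is 46.3% to 52.3% in the others. Across the 15 libraries, among which Halo-NLS 2 and 3 stand apart on this measure, the Pearson correlation with the median of the low-GC genes was 0.93 for Idi1 and 0.87 for Hmgcs1, 0.22 for Sqle and 0.12 for Insig1, and −0.62 for Fdps. These are descriptions over 15 libraries in 5 conditions. The scatter plots of counts against this median show the 4 genes concerned.

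**Figure D2:**
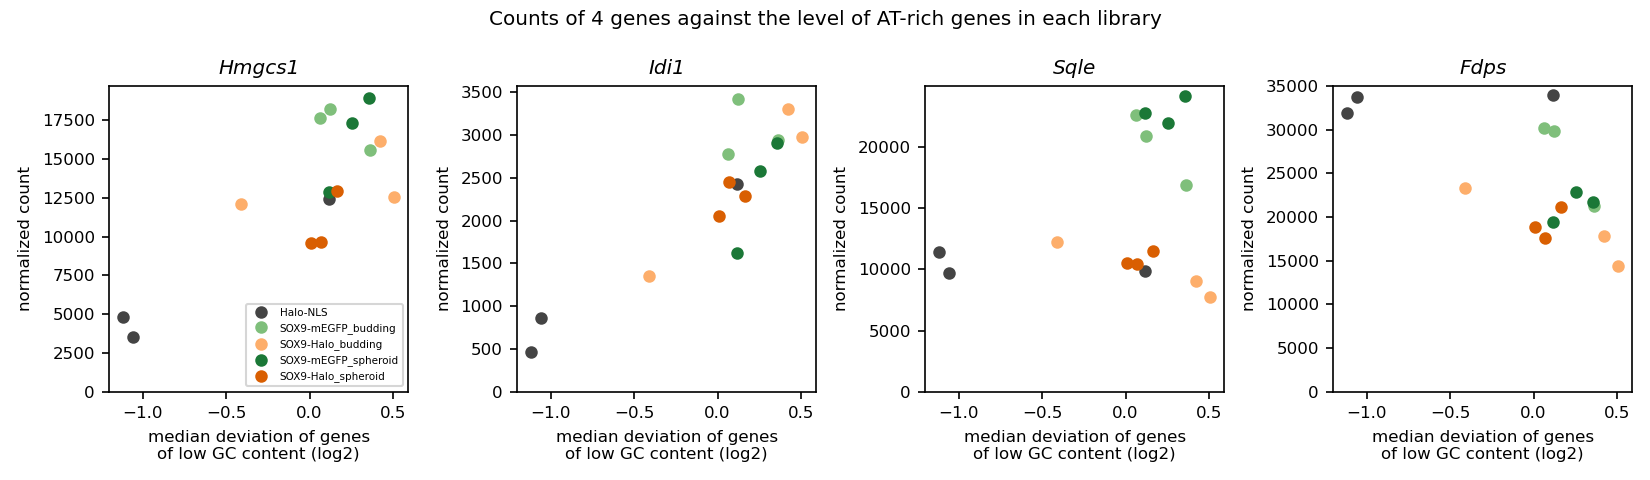
Normalized count (vertical axis, from 0) of Hmgcs1, Idi1, Sqle and Fdps in each of 15 libraries against the median log2 deviation of genes with a low GC content in that library (horizontal axis), coloured by condition. The Halo-NLS points at −1.12 and −1.06 are the lowest for Hmgcs1 and Idi1, while for Sqle the 6 SOX9-mEGFP points, all between 0.06 and 0.36 on the horizontal axis, stand above the other 9, which run from −1.12 to 0.51.

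Fdps encodes farnesyl diphosphate synthase, whose product also feeds protein prenylation, ubiquinone and dolichol (chr3:89000888-89019213, − strand). It read 34028, 31926 and 33719 counts in Halo-NLS. The budded SOX9 organoids held 30247, 29804 and 21244 in the SOX9-mEGFP line and 17855, 23285 and 14442 in the SOX9-Halo line. The spheroids held 22828, 21762 and 19425 in the SOX9-mEGFP line and 21185, 18906 and 17626 in the SOX9-Halo line. On the TMM scale all 3 Halo-NLS libraries exceeded all 12 SOX9 libraries, whereas Halo-NLS held the lowest libraries of Hmgcs1 and Idi1. The share of all genes with such a separation was not counted. The log2 differences from Halo-NLS were −0.84 ± 0.20 in SOX9-Halo_budding (adjusted p = 0.014), −0.79 ± 0.20 in SOX9-Halo_spheroid (adjusted p = 0.0043), −0.64 ± 0.20 in SOX9-mEGFP_spheroid (adjusted p = 0.015) and −0.29 ± 0.20 in SOX9-mEGFP_budding (adjusted p = 0.30). None reached the minimum fold, so Fdps was not called. With the GC trend removed these values were, in the same order, −0.67, −0.64, −0.45 and −0.11 (adjusted p = 0.029, 0.011, 0.065 and 0.72). With library sizes alone in place of TMM they were −0.56, −0.50, −0.38 and −0.08.

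Fdft1 encodes squalene synthase, the first enzyme committed to sterols (chr14:63382189-63417027, − strand). It read 6875, 8959 and 9526 in Halo-NLS, 9466, 9229 and 7430 in SOX9-mEGFP_budding and 6734, 7803 and 5201 in SOX9-Halo_budding. It read 9502, 9532 and 7595 in SOX9-mEGFP_spheroid and 10762, 9008 and 8370 in SOX9-Halo_spheroid. The ranges overlapped in every pair of conditions compared except the SOX9-Halo line, where the spheroids were higher than the budded organoids by 0.51 ± 0.20 (log2, adjusted p = 0.054), not called. Against Halo-NLS its log2 differences lay between −0.36 and 0.15, and between −0.08 and 0.37 with the GC trend removed, none called. Of its exon bases 24.8% overlap the antisense gene Ctsb. Reads were counted without strand, and those that overlapped both genes were assigned to neither. The counts of Fdft1 therefore leave out reads from the shared bases, and its level may be understated.

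Sqle encodes squalene epoxidase, the first oxygen-requiring step and a control point of the route (chr15:59186869-59203043, + strand). It was the one gene of the 7 called between the SOX9 spheroids. SOX9-mEGFP_budding held 22646, 20934 and 16907 counts and SOX9-mEGFP_spheroid 21998, 24172 and 22794. Halo-NLS held 9849, 11413 and 9676, SOX9-Halo_budding 9073, 12239 and 7728, and SOX9-Halo_spheroid 11541, 10552 and 10476. All 6 SOX9-mEGFP libraries (median 22322) therefore exceeded the other 9 (median 10476), as was the case for 83 of the 17560 genes (0.473%). Sqle was higher than in Halo-NLS by 1.16 ± 0.19 in SOX9-mEGFP_spheroid (log2, SE; 2.23-fold, adjusted p = 1.8e-04), which was called. The difference was 0.97 ± 0.19 in SOX9-mEGFP_budding (1.96-fold, adjusted p = 0.0059), just under the minimum fold. With the GC trend removed these were 0.78 (adjusted p = 0.0073) and 0.65 (adjusted p = 0.057), and the call was lost. In the SOX9-Halo line it was −0.09 ± 0.19 in the budded organoids and 0.07 ± 0.19 in the spheroids. Between the lines Sqle was 2.12-fold lower in SOX9-Halo_spheroid than in SOX9-mEGFP_spheroid (log2 −1.08 ± 0.19, adjusted p = 5.5e-04, called; −1.04 and adjusted p = 0.0018 with the GC trend removed). In the budded organoids it was 2.08-fold lower (−1.06 ± 0.19, adjusted p = 0.011), past the minimum fold but not the p threshold. Its change from budded organoids to spheroids did not differ detectably between the lines (−0.02 ± 0.26, adjusted p = 0.98). Of its exon bases 5.29% overlap the antisense gene Washc5, which held 36847 counts in all libraries together.

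Other genes of chromosome 15 were also higher in the SOX9-mEGFP line. In SOX9-Halo_budding against SOX9-mEGFP_budding the median log2 difference of the 741 tested genes of chromosome 15 was −0.49, the lowest of 20 chromosomes. Chromosome 19 had −0.32 and the other 18 lay between 0.01 and 0.08. In the spheroids chromosome 15 had −0.42, and several other chromosomes departed from 0 as well. The lowest was chromosome 18 (−0.60), and chromosomes 19 and 8 were the highest (0.56 and 0.47). Library by library, the median log2 deviation of chromosome 15 genes from their own means was 0.24 to 0.36 in the 6 SOX9-mEGFP libraries and −0.31 to −0.07 in the other 9. Of the 741 genes, 22 (2.97%) had all 6 SOX9-mEGFP libraries above the rest. Relative to its chromosome's median, Sqle stood at −0.57 log2 units in the budded organoids and at −0.67 in the spheroids of the SOX9-Halo line, with 10.3% and 26.2% of the chromosome's genes below it. The part of the chromosome-wide difference in the Sqle result was not tested.

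**Figure D3:**
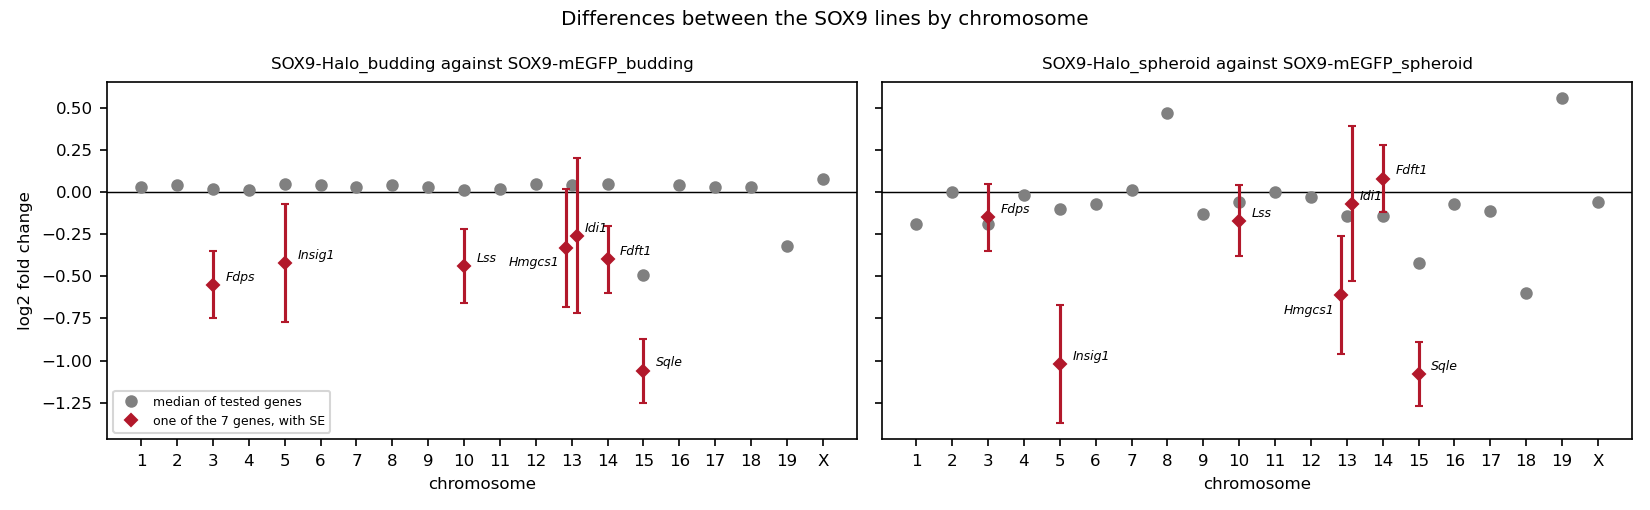
Log2 fold changes (vertical axis) of SOX9-Halo against SOX9-mEGFP organoids by chromosome (horizontal axis), budded organoids left and spheroids right; grey points are medians of the tested genes of a chromosome and red diamonds the 7 genes with their SE. In the budded organoids the median of chromosome 15 is at −0.49 and Sqle, on that chromosome, at −1.06.

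Lss encodes lanosterol synthase, which closes the sterol rings (chr10:76367298-76392976, + strand). Its counts were 8120, 11836 and 11738 in Halo-NLS, 11792, 12583 and 9091 in SOX9-mEGFP_budding and 7384, 10663 and 6602 in SOX9-Halo_budding. The spheroids held 12550, 12401 and 12258 in the SOX9-mEGFP line and 12618, 10438 and 10131 in the SOX9-Halo line. The 3 SOX9-mEGFP_spheroid values lay above those of Halo-NLS, but by only 0.23 ± 0.21 on the log2 scale (adjusted p = 0.38). Its other differences from Halo-NLS lay between −0.36 and 0.08, and none was called.

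Insig1 encodes the retention protein and is itself an SREBP target (chr5:28276315-28283668, + strand). It read 22125, 21202 and 11049 in Halo-NLS, 34710, 27074 and 14501 in SOX9-mEGFP_budding and 21856, 22690 and 12483 in SOX9-Halo_budding. The spheroids read 26078, 25582 and 20567 in the SOX9-mEGFP line and 15944, 11185 and 8413 in the SOX9-Halo line. The 3 SOX9-Halo_spheroid libraries lay below the 3 SOX9-mEGFP_spheroid libraries but overlapped those of Halo-NLS and of SOX9-Halo_budding. From budded organoid to spheroid in the SOX9-Halo line, where same-numbered libraries deviated together although no label pairs them, Insig1 was lower in 3 of 3 such pairs. The change was −0.68 ± 0.35 (adjusted p = 0.14), and −0.72 with the replicate number as a block (adjusted p = 0.018), called in neither. The share of all genes that moved in the same direction in all 3 pairs was not counted. Between the spheroids Insig1 was 2.03-fold lower in the SOX9-Halo line (log2 −1.02 ± 0.35, adjusted p = 0.047), which was not called. Against Halo-NLS it was −0.61 ± 0.35 in SOX9-Halo_spheroid (adjusted p = 0.16) and 0.41 ± 0.35 in SOX9-mEGFP_spheroid (adjusted p = 0.34). With the GC trend removed these were −0.87 (adjusted p = 0.047) and 0.11 (adjusted p = 0.81), not called. The difference between the lines in its change from budded organoids to spheroids was −0.60 ± 0.49 (adjusted p = 0.52).

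Few of the 7 genes were called in any comparison. Against Halo-NLS, 0 of 7 were called in SOX9-Halo_spheroid, where 28.9% of all genes were. In SOX9-mEGFP_spheroid 2 of 7 were called, Hmgcs1 and Sqle, both higher, where 27.5% of all genes were called and 15.3% were called higher. Both calls were lost with the GC trend removed, and Hmgcs1 was called in 1 of the 15 fits that each left out a library, the one without Halo-NLS 1, against 15 of 15 for Sqle. In the budded organoids 0 of 7 were called in either line, against backgrounds of 3.75% for SOX9-Halo and 2.76% for SOX9-mEGFP. From budded organoid to spheroid 0 of 7 were called in the SOX9-Halo line (25.3% of all genes) and 0 of 7 in the SOX9-mEGFP line (16.4%). Between the lines 0 of 7 were called in the budded organoids (0.456%) and 1, Sqle, was called lower in SOX9-Halo_spheroid, where 13.2% of all genes were called and 9.58% were called lower. DESeq2 gave the same counts except for 1, Hmgcs1, in SOX9-mEGFP_budding against Halo-NLS and 1, Sqle, between the budded lines.

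At an unadjusted p under 0.05 in edgeR more of the 7 genes passed, but in most comparisons no larger a share than of all genes. Against Halo-NLS it was 1 of 7 in SOX9-Halo_spheroid (Fdps; 55.0% of all genes), 3 in SOX9-mEGFP_spheroid (Hmgcs1, Sqle and Fdps; 56.7%), 3 in SOX9-Halo_budding (Hmgcs1, Idi1 and Fdps; 37.5%) and 3 in SOX9-mEGFP_budding (Hmgcs1, Idi1 and Sqle; 34.4%). From budded organoid to spheroid it was 1 in the SOX9-Halo line (Fdft1; 47.9%) and 0 in the SOX9-mEGFP line (37.0%), and for the difference between those changes 0 (23.9%). Between the lines it was 2 in the budded organoids (Sqle and Fdps; 8.37%) and 2 in the spheroids (Sqle and Insig1; 35.0%). The libraries of the conditions did not overlap for 1 of 7 genes in SOX9-Halo_spheroid against Halo-NLS (54.8% of all genes), 4 in SOX9-mEGFP_spheroid (56.5%), 1 in SOX9-Halo_budding (29.7%) and 4 in SOX9-mEGFP_budding (32.5%). Within the lines this held for 1 of 7 in the SOX9-Halo line (52.8%) and 0 in the SOX9-mEGFP line (46.0%), and between the lines for 1 in the budded organoids (12.0%) and 2 in the spheroids (48.6%).

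The median absolute log2 fold change from budded organoid to spheroid was 0.34 over the 7 genes against 0.68 over all genes in the SOX9-Halo line, and 0.15 against 0.48 in the SOX9-mEGFP line. From Halo-NLS it was 0.61 against 0.83 in SOX9-Halo_spheroid and 0.64 against 0.85 in SOX9-mEGFP_spheroid. In SOX9-Halo_budding against SOX9-mEGFP_budding it was 0.42 over the 7 genes, larger than the 0.21 over all, and all 7 estimates were below 0, with adjusted p-values of 0.33 or more for the 6 genes other than Sqle. The values over all genes cover all 17560 tested, also those with low counts. They were not matched to the abundance of the 7 genes.

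**Figure D4:**
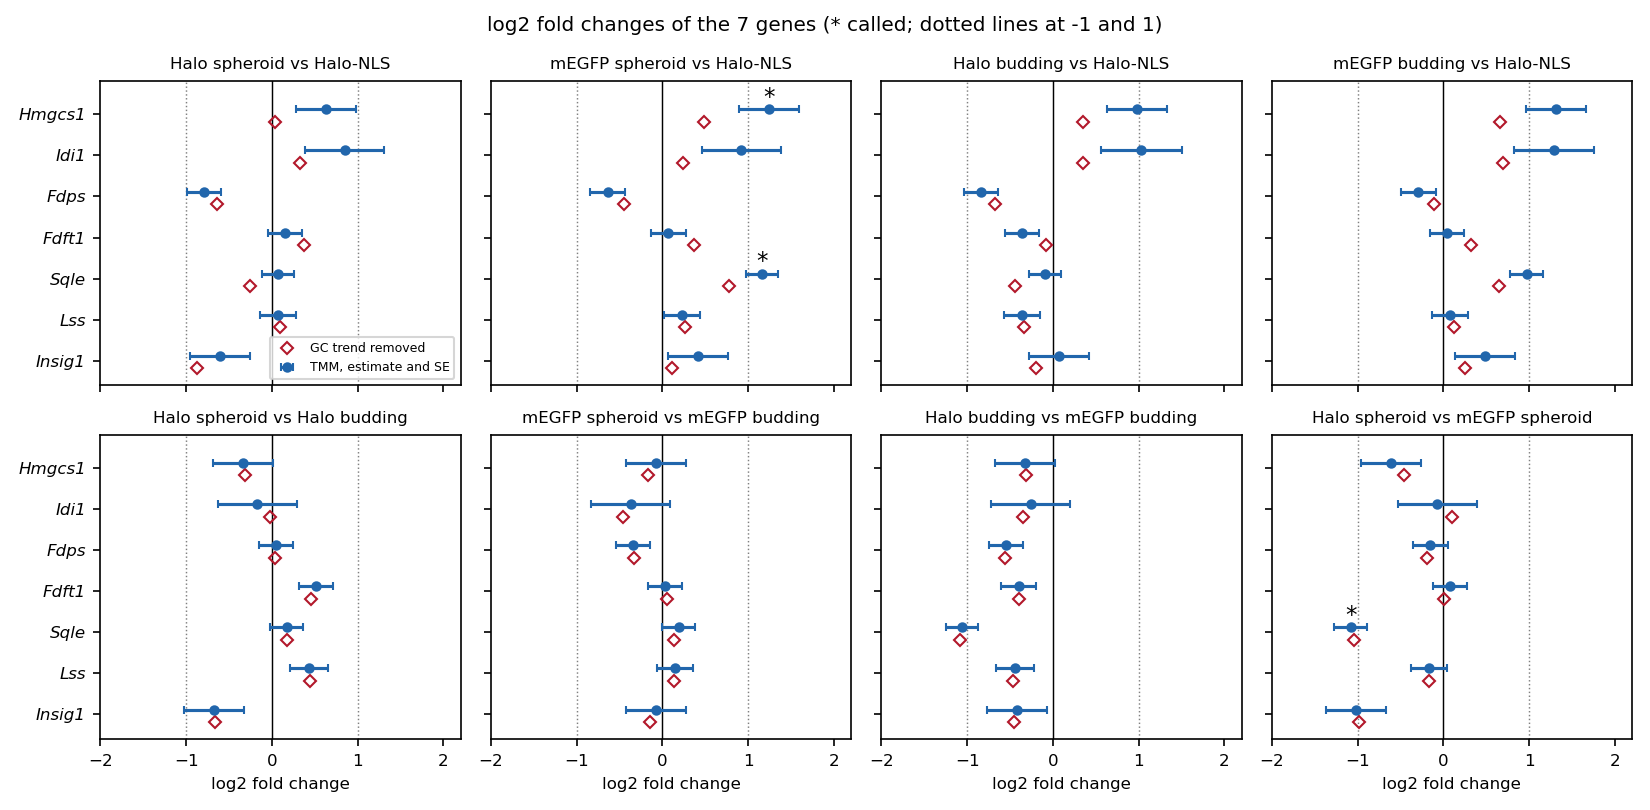
Log2 fold changes (horizontal axis) of the 7 genes in 8 comparisons; blue points with bars are edgeR estimates ± SE, open red diamonds the values with the GC trend removed, and asterisks mark called genes. Sqle is called in SOX9-mEGFP_spheroid against Halo-NLS and between the spheroids, and the red diamonds of Hmgcs1 and Idi1 lie closer to 0 than the blue points in every comparison with Halo-NLS.

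The 7 genes did not move as one over the libraries. Fdft1 and Lss had the highest pairwise Pearson correlation of log2 counts (0.899 over 15 libraries, 0.882 after the condition means were removed), and Hmgcs1 and Idi1 the next over the 15 libraries (0.855, and 0.755 within conditions). Within conditions Fdps and Sqle (0.847, but 0.198 over all libraries), Sqle and Lss (0.815) and Fdps and Fdft1 (0.792) came before that pair. Idi1 and Lss had −0.315 and −0.679. All pairs share libraries and depth. Among genes outside the lists, those most like the mean profile of the 7 (Pearson r over 15 libraries, mean count of at least 100) were Tpd52 (0.928), Eif4b (0.892), Bnip3l (0.879), Pdk1 (0.873), St13 (0.864), Tmed2 (0.850), Cept1 (0.847), Slc25a17 (0.843), Skp1 (0.843) and Dstn (0.841). Of these 10 genes, 3 (Eif4b, St13 and Slc25a17) lie on chromosome 15, as Sqle does. The mean profile followed its own genes unequally, with r of 0.846 for Sqle, 0.803 for Hmgcs1, 0.768 for Insig1 and 0.572 for Idi1. For Lss, Fdft1 and Fdps r was 0.423, 0.363 and 0.183. The 10 genes hold 39.2% (Cept1) to 49.4% (Eif4b) G and C in their exons. No GC trend was removed from these correlations, and the part of base composition in them was not tested. Within the pathway lists the closest was Cyp51 (0.909).

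Among the remaining enzymes of the route some were called, where 28.9% of all genes were in SOX9-Halo_spheroid and 27.5% in SOX9-mEGFP_spheroid. Of 5 other mevalonate and isoprenoid enzymes, 0 were called in the first and 1 in the second, Mvk (mevalonate kinase), which fell by 1.25 on the log2 scale (adjusted p = 7.5e-04). That call was lost with the GC trend removed (−0.81), and Acat2, a thiolase at the head of the route, became called there (−0.84 before, −1.19 after). Mvd (42.6 RPKM) and Pmvk (33.6 RPKM), which act after Mvk, had −0.42 and −0.38 in SOX9-Halo_spheroid and −0.70 and −0.52 in SOX9-mEGFP_spheroid, not called. Of 10 enzymes after lanosterol, Tm7sf2 (a sterol C14-reductase) fell in both spheroids (−2.28 ± 0.25 in SOX9-Halo_spheroid and −2.12 ± 0.24 in SOX9-mEGFP_spheroid). It was also called lower in SOX9-Halo_budding (−1.11 ± 0.24, adjusted p = 0.0089), a call lost with the GC trend removed (−0.78), and had −0.68 in SOX9-mEGFP_budding. Erg28 became called in SOX9-Halo_spheroid with the GC trend removed (−0.77 before, −1.11 after). Msmo1 (sterol C4-methyl oxidase) rose in SOX9-mEGFP_spheroid (1.14 ± 0.26), a call lost with the GC trend removed. Cyp51 (101 RPKM), the lanosterol demethylase, and Nsdhl (41.4 RPKM), the most abundant of the uncalled, had 0.26 and 0.14 in SOX9-Halo_spheroid and 0.74 and 0.41 in SOX9-mEGFP_spheroid. The medians of these lists were −0.42 and −0.03 in SOX9-Halo_spheroid and −0.70 and 0.36 in SOX9-mEGFP_spheroid, where the medians of all genes were −0.01 and 0.03.

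Among 8 regulators of the SREBP pathway, 1 rose in SOX9-Halo_spheroid and 3 in SOX9-mEGFP_spheroid, and 0 fell, where 28.9% and 27.5% of all genes were called in either direction. Mbtps2, the protease that releases SREBP within the membrane, rose in both (1.69 ± 0.44 and 2.14 ± 0.45). Its exons hold 37.9% G and C, and Halo-NLS held 145 to 535 counts of it, so its fold depends on which control libraries are read. SOX9-Halo_spheroid held 845 to 1031 and SOX9-mEGFP_spheroid 1053 to 1415. Insig2, the other INSIG gene, rose in SOX9-mEGFP_spheroid (1.56 ± 0.28) and was called lower in SOX9-Halo_spheroid than there (−1.09 ± 0.28, adjusted p = 0.0097). Rnf139, a ubiquitin ligase of the endoplasmic reticulum, rose in SOX9-mEGFP_spheroid (1.19 ± 0.31), a call lost with the GC trend removed. It lies on chromosome 15. The SREBP genes themselves were not called. Srebf2, also on chromosome 15, had −0.11 and 0.23 and Srebf1 −0.35 and −0.94 in the SOX9-Halo and SOX9-mEGFP spheroids.

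Uptake and transport genes were called in both spheroids, at a share near or above that of all genes (28.9% in SOX9-Halo_spheroid and 27.5% in SOX9-mEGFP_spheroid). Of 13 genes, 5 fell and 0 rose in SOX9-Halo_spheroid, while 2 fell and 5 rose in SOX9-mEGFP_spheroid. Npc1l1, the transporter of dietary cholesterol at the apical membrane, held 7719 to 29108 counts in Halo-NLS, 4896 to 6645 in SOX9-mEGFP_spheroid and 20.8 to 28.4 in SOX9-Halo_spheroid (−9.38 ± 0.72, adjusted p = 9.0e-08). Scarb1, the HDL receptor, and Lipa, the lysosomal lipase that frees sterol from its esters, fell in both spheroids (−2.19 and −2.78 in SOX9-Halo, −2.13 and −1.65 in SOX9-mEGFP). The endocytic receptor gene Lrp1 fell in SOX9-Halo_spheroid (−4.17 ± 0.76, 256 to 353 counts). Its Halo-NLS libraries ran from 1682 to 10992, so the size of that fall depends on which control libraries are read. Npc1, which exports sterol from lysosomes, rose in SOX9-mEGFP_spheroid (2.44 ± 0.41), as did Vldlr (1.43), Stard4 (1.52), Gramd1b (1.58) and Gramd1a (6.62 ± 0.55). Of these, Vldlr and Stard4 lost the call with the GC trend removed. Npc1 and Stard4 lie on chromosome 18, whose median in SOX9-mEGFP_spheroid against Halo-NLS was 0.81, the highest of 20 chromosomes. Lipa and Vldlr lie on chromosome 19, whose median was −0.79, the lowest, as do Tm7sf2 above and Fads1, Fads2, Scd1, Scd2 and Gpam below. In SOX9-Halo_spheroid these medians were 0.19 and −0.06, and that of chromosome 19 was the lowest of 20 in SOX9-Halo_budding too (−0.62). Their part in the results of these genes was not tested. Gramd1a had at most 2 counts in any SOX9-Halo_spheroid library, so its level there was at least 6.11-fold lower than in Halo-NLS, with 3 counts per library as the floor. Npc2 (61.3 RPKM), which hands sterol to NPC1, and Stard3, the most abundant of the uncalled, had −0.59 and −0.36 in SOX9-Halo_spheroid and −0.60 and −0.17 in SOX9-mEGFP_spheroid.

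Genes of export, esterification and oxidation fell in larger numbers. Of the 13 tested of 14, 9 fell and 1 rose in SOX9-Halo_spheroid (28.9% of all genes called), and 6 fell and 2 rose in SOX9-mEGFP_spheroid (27.5%), and 0 were called in the budded organoids of either line. Cyp27a1 and Mylip became called in SOX9-mEGFP_budding with the GC trend removed (2.34 and 2.16). Apoa1, the main HDL protein, held 30934 to 40970 counts in Halo-NLS, 2729 to 5548 in SOX9-mEGFP_spheroid and 6.62 to 22.5 in SOX9-Halo_spheroid (−3.01 ± 0.55 and −11.54 ± 0.82). Abcg5 and Abcg8, whose products return sterols to the lumen as a pair, fell by 11.28 and 10.80 on the log2 scale in SOX9-Halo_spheroid and by 4.35 and 4.80 in SOX9-mEGFP_spheroid. Mttp, which loads lipid onto lipoproteins, fell by 7.75 in SOX9-Halo_spheroid and had a log2 fold change of −3.22 in SOX9-mEGFP_spheroid, also called. Abca1, the efflux pump, was at least 37.0-fold lower in SOX9-Halo_spheroid and fell by 4.64 in SOX9-mEGFP_spheroid. Nr1h3, which encodes the sterol sensor LXR alpha, fell by 3.31 and 2.91. Apob and Soat2, the lipoprotein scaffold and the enterocyte's esterifying enzyme, fell in SOX9-Halo_spheroid (−5.60 ± 0.74 and −5.57 ± 0.39) and had 0.66 and −0.97 in SOX9-mEGFP_spheroid. Soat2 lies on chromosome 15, whose medians in these comparisons were −0.08 and 0.36. Mylip, a ubiquitin ligase induced by LXR, was at least 5.17-fold lower in SOX9-Halo_spheroid. Soat1, the widely expressed esterifying enzyme, rose in SOX9-mEGFP_spheroid (1.29 ± 0.21), a call lost with the GC trend removed, and Cyp27a1, a sterol hydroxylase, rose in both (3.72 and 3.55). The uncalled genes of this list were Nr1h2 (25.4 RPKM), which encodes LXR beta and had −0.69 in SOX9-Halo_spheroid and −0.76 in SOX9-mEGFP_spheroid, and the efflux pump gene Abcg1, which held 3.92 to 15.1 counts in Halo-NLS and at most 0.90 and 4.44 in the same spheroids. The change from budded organoid to spheroid differed between the lines for 2 of the 13 uptake and transport genes, 7 of the 13 export genes and 0 of the 7 synthesis genes, against 7.39% of all genes. The plot by list sets these genes beside the 7.

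**Figure D5:**
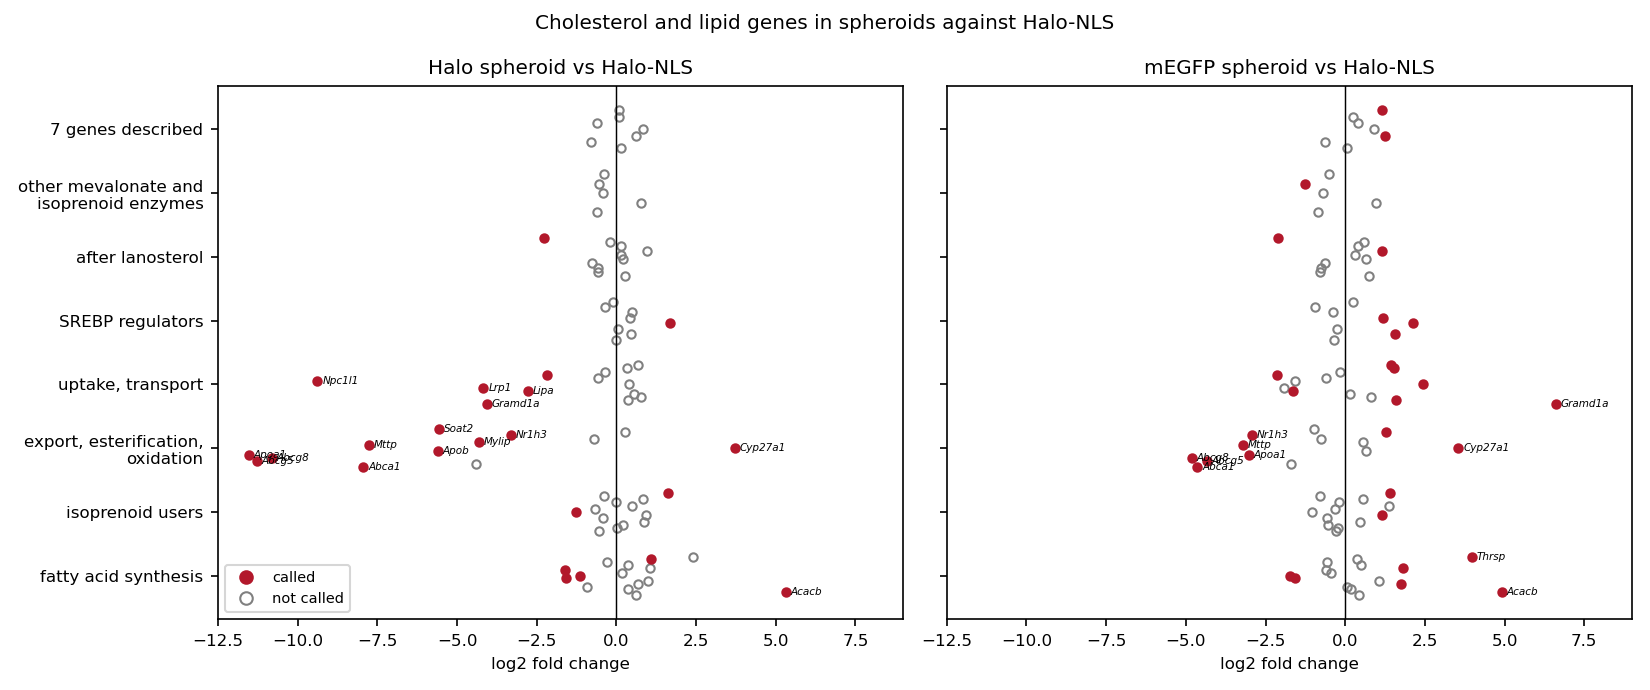
Log2 fold changes against Halo-NLS of the genes in each list, with the 7 genes described among them, in both spheroid conditions; filled points were called and open points were not. The points of Gramd1a, Mylip, Abca1 and Abcg1 for SOX9-Halo_spheroid are fitted values that rest on at most 3 counts per library of that condition. The 7 genes lie between −0.79 and 1.24, while genes of uptake and export extend to −11.54 in SOX9-Halo_spheroid.

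Markers of absorptive enterocytes moved with these falls. The summed level of 9 such markers was 7850 CPM (counts scaled to library size) in Halo-NLS, 4440 in SOX9-mEGFP_budding, 5420 in SOX9-Halo_budding, 595 in SOX9-mEGFP_spheroid and 638 in SOX9-Halo_spheroid (means of 3). Of the 9, 8 were called lower in each spheroid condition, all but Anpep, and the most abundant, Fabp1, went from 2870 to 39.4 in SOX9-mEGFP_spheroid and 1.26 in SOX9-Halo_spheroid. Anpep made up 206 of the sum in SOX9-mEGFP_spheroid and 634 in SOX9-Halo_spheroid, and the other 8 summed to 389 and 3.53. Between the spheroids, 7 of the 9 were called lower in the SOX9-Halo line and 1 higher (median log2 fold change −5.67). Apoa1 belongs to this list as well as to that of export. Goblet markers summed to 4880 in Halo-NLS (libraries from 2440 to 8340), 3040 in SOX9-mEGFP_spheroid (2600 to 3790, 0 of 7 called) and 20.3 in SOX9-Halo_spheroid, where Zg16 was at 0. Paneth markers summed to 1710, 1270 and 4.31 in these conditions, and to 1580 in SOX9-mEGFP_budding and 815 in SOX9-Halo_budding. Against Halo-NLS, 3 of the 7 Paneth markers were called lower in SOX9-Halo_budding and 1 higher in SOX9-mEGFP_budding. Between the budded lines 1 was called lower in SOX9-Halo_budding (median log2 fold change −1.77). In SOX9-mEGFP_spheroid 6 of the 7 Paneth markers were called lower, and Mmp7, which rose, made up 1250 of the 1270, the others summing to 20.1. In Halo-NLS, SOX9-mEGFP_spheroid and SOX9-Halo_spheroid, enteroendocrine markers summed to 752, 2.47 and 0.374. Gcg was at 0 in SOX9-mEGFP_spheroid and Tac1 and Sct at 0 in SOX9-Halo_spheroid. Stem cell markers summed to 338, 160 and 169, of which Smoc2, called lower in both spheroids, made up 183, 3.78 and 10.3. Of these 6 markers Olfm4 was also called lower in SOX9-Halo_spheroid, and Lgr5 was called higher in SOX9-mEGFP_spheroid, a call lost with the GC trend removed, while Olfm4 became called lower there. Proliferation markers summed to 1130, 920 and 1400, and 0 of 12 were called in either spheroid. With the GC trend removed, 3 of them were called lower in SOX9-mEGFP_spheroid and 1 in SOX9-Halo_spheroid. Markers of epithelium, led by Krt8, summed to 8990, 12000 and 6590, and all 7 were present in every condition, with Epcam, Vil1 and Cldn7 called lower in SOX9-Halo_spheroid (−1.11, −3.58 and −1.87, the Epcam call being lost with the GC trend removed) and Krt18 called higher in both spheroids (1.58 in SOX9-Halo and 1.93 in SOX9-mEGFP). With the GC trend removed, 3 epithelium markers were called higher in SOX9-mEGFP_spheroid, in place of 1. Markers of fibroblasts (with Dcn and Lum at 0 in both spheroids), leukocytes and endothelium summed to at most 2.12, 5.60 and 1.01 in any condition. The part of cell composition in the pathway results was not tested.

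Lists that border the pathway were split. Of 13 users of isoprenoid units 1 rose (Zmpste24, which processes prenylated proteins, 1.63 ± 0.24) and 1 fell (Pdss1, of ubiquinone synthesis, −1.27 ± 0.34) in SOX9-Halo_spheroid. In SOX9-mEGFP_spheroid, 2 rose (Zmpste24, 1.40, and Nus1, of dolichol synthesis, 1.17) and 0 fell. The share of all genes called was 28.9% and 27.5%. The Zmpste24 call was lost with the GC trend removed in both spheroids (0.93 in SOX9-Halo and 0.55 in SOX9-mEGFP), as was the Nus1 call in SOX9-mEGFP_spheroid (0.34). In that fit Fntb, a farnesyltransferase subunit, and Pdss2 became called in SOX9-Halo_spheroid (1.14 and −1.10) and Pdss1 became called in SOX9-mEGFP_spheroid. Rabggtb and Fnta, subunits of prenyltransferases and the most abundant of the uncalled, had 0.84 and 0.22 in SOX9-Halo_spheroid and 0.55 and −0.55 in SOX9-mEGFP_spheroid. Of 15 fatty acid synthesis genes, which SREBP1 is known to control, 2 rose and 3 fell in SOX9-Halo_spheroid and 4 rose and 2 fell in SOX9-mEGFP_spheroid, against 28.9% and 27.5% of all genes called. Acacb, the mitochondrial acetyl-CoA carboxylase, rose in both (5.33 ± 0.54 and 4.92 ± 0.53). Scd2, a desaturase at 596 RPKM, rose in SOX9-Halo_spheroid (1.09 ± 0.27). The desaturase genes Fads1 and Fads2 fell in both, with −1.59 and −1.14 in SOX9-Halo_spheroid and −1.58 and −1.73 in SOX9-mEGFP_spheroid, and with the GC trend removed the Fads2 call in SOX9-Halo_spheroid was lost and Acss2, an acetyl-CoA synthetase, became called there (−1.28). Gpam, of glycerolipid synthesis, fell in SOX9-Halo_spheroid (−1.61), and Elovl5 (1.75), Me1 (1.82) and Thrsp (3.98) rose in SOX9-mEGFP_spheroid, of which Me1 lost the call with the GC trend removed. Scd1 and Fasn, the most abundant of the uncalled, had −0.28 and 0.18 in SOX9-Halo_spheroid and −0.56 and −0.45 in SOX9-mEGFP_spheroid.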

How the data were processed

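The authors trimmed reads with cutadapt 4.5, aligned them with STAR to mm39, and counted uniquely placed reads per Ensembl gene (GRCm39), ignoring strand, with HTSeq 2.0.2, and deposited whole-number counts per library from unstranded poly-A libraries. The deposited tables of normalized signal and of the authors' own comparisons (mean signal, log2 fold changes, p-values and adjusted p-values from DESeq2 on Galaxy, tool version 2.11.40.8) were not used, nor were their values compared.

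Counts were analysed with edgeR 4.0.16 in R 4.3.3: TMM scaling, the default filter on low counts, 1 coefficient per condition over all 15 libraries, and the quasi-likelihood F-test with Benjamini-Hochberg adjustment over 17560 genes. An SE was obtained as the size of the log2 fold change over the root of F. Depth was 28062722 to 40559766 counted reads per library, so replicate spread (common biological coefficient of variation 0.302), not counting error, limited precision for the 7 genes. Alternatives used DESeq2 1.42.0, other scalings, filters and thresholds, each replicate left out, a replicate block, and a smooth trend of log2 counts with exon GC content (lowess) removed per library. Genes named from the lists are those called in a spheroid condition against Halo-NLS and the 2 most abundant uncalled genes. Genes that became called only with the GC trend removed were named after their values were seen. A few genes of the lists are not reported here and were left out of the counts and sums by list. The genes and lists were chosen with earlier results of these data known. Over 11054 genes, same-numbered libraries deviated together at r above 0.1 in all 3 pairs only between the conditions of the SOX9-Halo line (r from 0.234 to 0.403). There a block left 0 of the 7 genes called. No label states that replicate numbers pair samples. The fits were also run on simulated data, the outcome of which is not given here. Sequences came from RefSeq, GRCm38.p6, whereas gene positions are GRCm39.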

Additional observations from a re-analysis of the deposited data

Results flagged for a closer look

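In 10 genes of the neighbouring lists the change from budded organoid to spheroid differed between the lines by edgeR's test of that difference (called). They were 2 of 13 uptake and transport genes, 7 of 13 export genes and 1 of 15 fatty acid genes. For the 7 synthesis genes the count was 0, against 7.39% of all genes. Values are log2 changes in the SOX9-Halo line minus those in the SOX9-mEGFP line. Among uptake and transport genes the difference was −7.49 for Npc1l1 (−8.80 in the SOX9-Halo line against −1.30) and −10.77 for Gramd1a (−5.47 against 5.30). Among export and esterification genes it was −7.36 for Abcg5, −6.20 for Abcg8, −4.13 for Soat2, −8.57 for Apoa1, −6.66 for Apob, −4.73 for Mttp and −4.40 for Mylip, each with the larger fall in the SOX9-Halo line. Gramd1a and Mylip had at most 2 counts in any SOX9-Halo_spheroid library, so their fitted values depend on the prior count. Elovl5 rose by 1.07 in the SOX9-mEGFP line and had 0.02 in the SOX9-Halo line, a difference of −1.05. Of 9 enterocyte markers, 7 were also called lower for this difference between the lines (median −5.84), and the 8 other than Anpep summed to 3.53 CPM in SOX9-Halo_spheroid and 389 in SOX9-mEGFP_spheroid. Their part in these differences was not tested.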

How the results depend on the processing

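Of 1624 fold changes of the 7 genes recomputed under other settings, 1565 stayed on their side of the thresholds (58 values that were called in neither fit differed in sign), 35 became called, 24 were no longer called and 0 called values reversed. The counts of called genes moved as follows, and the causes were not tested beyond what each setting removes. Against Halo-NLS, SOX9-mEGFP_spheroid had 2 of 7 called, 1 (Sqle) with DESeq2's size factors in edgeR and 1 (Sqle) from only the compared libraries. It had 3 (with Fdps) at an adjusted p of at most 0.05 and no minimum fold, and 0 at a minimum log2 fold change of 2. With the GC trend removed it had 0, and 1 (Sqle) at an adjusted p of at most 0.05 and no minimum fold. With Halo-NLS 2 and 3 left out, the log2 fold change there was 1.17 for Sqle and 0.34 for Hmgcs1, against 1.16 and 1.24 in the main fit. Leaving out 1 replicate gave 1 to 3 called in that comparison. Sqle was called in 15 of these 15 fits and Hmgcs1 in 1, the fit without Halo-NLS 1. SOX9-Halo_spheroid went from 0 to 1 (Fdps) at an adjusted p of at most 0.05 with no minimum fold and to 2 (Fdps and Insig1) with the GC trend removed as well, with 0 to 2 over left-out replicates. SOX9-Halo_budding went from 0 to 2 (Hmgcs1 and Idi1) without the filter, to 1 (Fdps) at the looser threshold with or without the GC trend, and to 0 to 2 over left-out replicates, with 2 without Halo-NLS 1 and 1 (Fdps) without SOX9-Halo_budding 2. SOX9-mEGFP_budding went from 0 to 1 (Sqle) with library sizes alone, 3 (Hmgcs1, Idi1 and Sqle) without the filter, 1 (Hmgcs1) with DESeq2, 2 (Hmgcs1 and Sqle) at the looser threshold, 1 (Hmgcs1) with the replicate block, and 0 to 2 over left-out replicates. Between the budded lines, Sqle made the count 1 in place of 0 without the filter, with DESeq2, at the looser threshold with or without the GC trend, with the replicate block and without SOX9-Halo_budding 2 (range 0 to 1). Between the spheroids the count of 1 (Sqle) became 2 (with Insig1) without the filter, from only the compared libraries, at the looser threshold with or without the GC trend and with the replicate block, and 0 at a minimum log2 fold change of 2, and stayed at 1 over left-out replicates. Within the lines and for the difference between them the count stayed at 0 in every fit run. The block used replicate numbers, which no label describes as pairing samples. Of 30 same-numbered pairs 17 deviated together at r above 0.1, and the share of different-numbered pairs was not counted. All 3 did so in 1 of 10 pairs of conditions, that of the SOX9-Halo line. Single same-numbered pairs elsewhere had higher r, such as 0.817 for Halo-NLS 2 with SOX9-Halo_budding 2. Fits that left out Halo-NLS 2 and 3 kept 1 control library, which was assumed to vary like the other conditions. The fits without Halo-NLS 2 and 3, the GC trend with the looser threshold and the chromosome medians were chosen after seeing the data.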
